A study of Mus musculus with 34 samples.

Results

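FVB mouse liver tumors driven by MYC were compared between animals with both Arid1a copies floxed (Homo) and animals with a single floxed copy (Het). The 8 libraries were chosen by the strain and genotype in their labels, 4 Homo and 4 Het, out of 34 libraries in the series, and every one of the 16140 genes of their table was used. All 8 tumors came from mice with LAP-tTA and TRE-MYC, a liver-restricted tetracycline switch and the MYC transgene it controls, and tumors form once doxycycline is withdrawn. Both groups also carried Alb-cre, which is expressed in hepatocytes, so that immune, vascular and stromal cells of these tumors are expected to keep Arid1a. Het tumors were Arid1a fl/+;Alb-cre from mice about 70 days old, and Homo tumors were Arid1a fl/fl;Alb-cre from mice about 100 days old. Tissue was collected at death, so age moved with genotype and the effects of age and of the second Arid1a copy cannot be told apart. A further 4 FVB tumors with floxed Arid1a and no Cre (WT, about 55 days) entered the fit only to help estimate the spread. Separate mice are not stated for the libraries in the labels, and p-values then measure only the spread between samples, which may be technical. The labels also leave out which exon of Arid1a is deleted.

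Arid1a is the subunit that defines the BAF form of SWI/SNF and binds DNA. SWI/SNF uses ATP to move nucleosomes and opens enhancers and promoters to transcription factors. Arid1b is its paralog and takes its place in other copies of the complex. In the liver, Arid1a is studied both as a suppressor of tumor progression and as a gene that helps tumors start, and MYC drives ribosome production and cell division in this model.

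Levels are log2 CPM (reads of a gene scaled to a common library total), as deposited after normalization, with a floor that lists values of 1 CPM or less at 0. Differences are Homo minus Het on this scale, so those of genes near the floor understate the change. Depth was 6.72 to 9.58 M reads in the Het libraries and 7.94 to 9.97 M in the Homo libraries. The predicted gene Gm26917 alone took 7.32% to 14.0% of a library, with the highest share in Het 4. The first principal component of the 8 libraries (24.1% of the variance) set Homo 3 apart, and the second (22.6%) ran from Homo 1 to Het 4. In Homo 3, 22 genes lay more than 2 log2 units above all 7 other libraries and 31 lay as far below them. The Y-linked genes were well above the floor in all 8 libraries, with Ddx3y between 6.20 and 6.89. Hepatocyte genes were abundant, with a mean log2 CPM over 42 of them of 6.56 to 7.29 in Het and 6.78 to 7.35 in Homo libraries.

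The labels were checked on Arid1a (chromosome 4, 133679008 to 133756769, minus strand, GRCm38). The 4 Het libraries were at 7.80, 7.54, 7.53 and 8.19 and the 4 Homo libraries at 7.43, 8.0, 7.76 and 7.76. The groups overlapped almost completely. The difference was -0.03 ± 0.17 (SE, n = 4 and 4), with a 95% interval of -0.39 to 0.34 (exact permutation p = 0.914, two-sided, where 4 against 4 allows no p below 0.0286). The level covers reads from all exons, in a tissue that also holds cells without Cre, so it is a weak check of the genotype. Its sign is not stable: the difference was 0.01 with each library centred on its median, 0.14 with array weights and 0.11 without Homo 3 and Het 4.

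Myc (chromosome 15, 61985391 to 61990374) was at 3.93, 3.62, 3.95 and 3.91 in Het and 3.72, 4.05, 3.97 and 3.53 in Homo libraries. Both groups covered the same range, and the difference was -0.04 ± 0.20 SE (exact permutation p = 0.886). How transgene reads were treated in the counting of mouse Myc was not stated in the labels.

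The study followed 4 genes, and none of them separated the groups. Emilin1, an extracellular matrix glycoprotein, differed by -0.10 ± 0.25 SE (exact permutation p = 0.800). Mat1a, the liver enzyme that makes S-adenosylmethionine, differed by -0.07 ± 0.29 SE (exact permutation p = 0.743). Lcn2, a siderophore-binding protein of neutrophils and stressed hepatocytes, was at 2.11, 2.22, 0.20 and 1.35 in Het and 1.77, 2.87, 5.43 and 1.33 in Homo libraries. Homo 2 and Homo 3 were above the Het range and the other two inside it, and the difference of 1.38 ± 0.74 SE had an exact permutation p of 0.286. Il1r1, the receptor for interleukin 1, had Homo 3 alone above the Het range, at 4.59, with the other Homo libraries between 3.52 and 3.58 (difference 0.31 ± 0.39 SE, exact permutation p = 0.486). The plot of these genes by library shows the overlap.

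**Figure D1:**
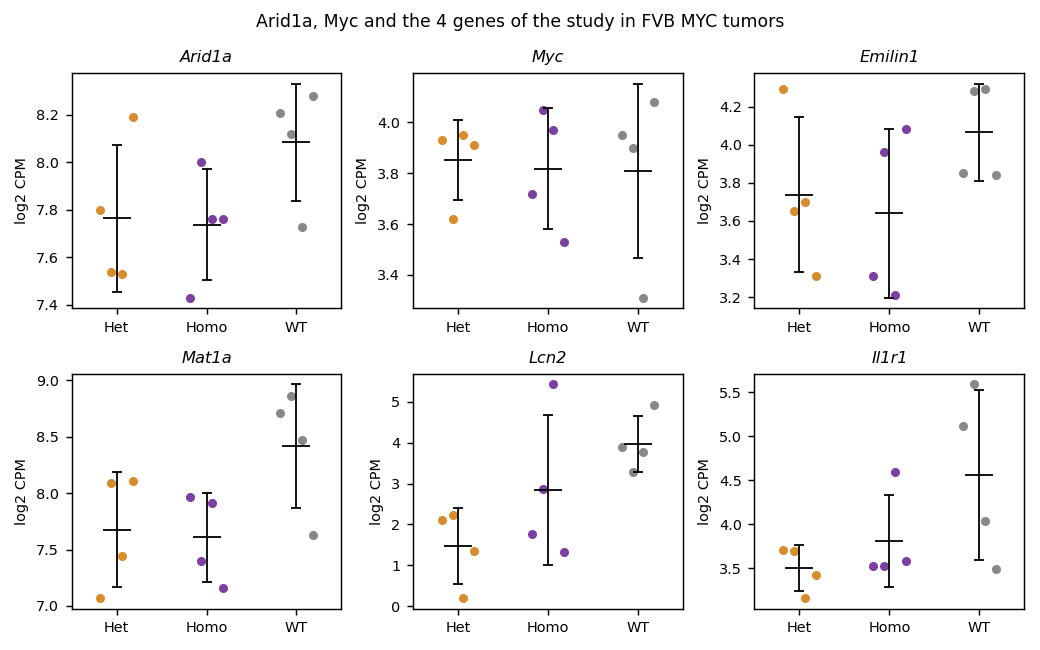
Level of Arid1a, Myc and the 4 genes of the study in each FVB library (y axis, log2 CPM; each panel has its own scale, not starting at 0), by genotype. Points are libraries, horizontal bars means and whiskers SD (n = 4). Het and Homo points overlap in every panel, and Homo 3 is the high Homo point for Lcn2 (5.43) and Il1r1 (4.59).

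The comparison of Homo with Het tumors has Cre on both sides. The groups differ in the second Arid1a copy and also in age. No gene of 16140 passed the test across all genes (0% called, limma with Benjamini-Hochberg adjustment, adjusted p under 0.05), and the smallest adjusted p was 0.792, for a pseudogene. At an unadjusted p under 0.05 there were 623 genes, 3.86% of those tested, of which 214 were higher (1.33%) and 409 lower (2.53%) in Homo. A gene is called separated here when all 4 libraries of one group lie above all 4 of the other. There were 431 separated genes (2.67%), 149 higher in Homo (0.923%) and 282 lower (1.75%). The direction of this split was not stable. Centring each library on its median gave 301 higher and 244 lower, quantile normalization gave 242 and 254, and leaving out Gm26917 gave 145 and 351. It also turned on single libraries, with 495 higher and 425 lower without Homo 3 against 236 and 938 without Homo 4.

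The precision sets what could have been seen. The 95% interval of a gene's difference reached 0.505 log2 units to each side in the median gene. It reached 0.302 in the 5621 genes at a mean log2 CPM of 5 or more and 0.735 in the 4496 genes with a mean under 2. For 12435 genes (77.0%) the whole interval lay within 1 log2 unit of 0, that is, within a change of expression by a factor of 2. In the other genes the interval reached past a change of that size, either because it was wide or because the difference itself was large, as in Polr2l and Nhs. The median difference over all genes was -0.04, with 41.1% of genes higher in Homo and 58.1% lower. Of the 13093 protein-coding genes 2.64% were separated (106 higher, 239 lower), and of the 972 pseudogenes 3.09% (20 higher, 10 lower).

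**Figure D2:**
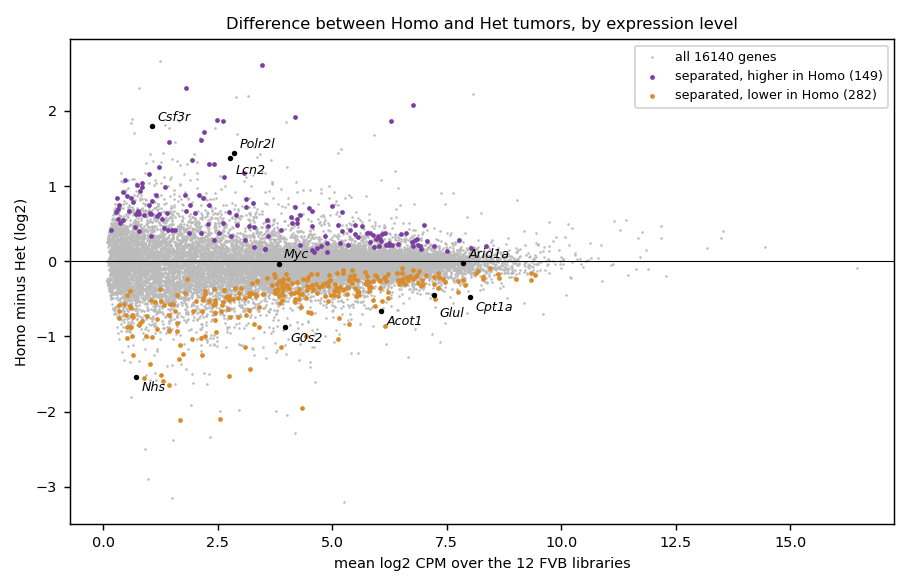
Homo minus Het difference (y axis, log2) against mean level over the 12 FVB libraries (x axis, log2 CPM) for all 16140 genes. Colored points are the 149 separated genes higher and the 282 lower in Homo, and black points are genes named in the text. The spread widens toward low levels, Arid1a and Myc lie near 0, and none of the points passed the test.

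By the naming rule, the 15 separated genes with the smallest p-values were taken in each direction. Of these, 6 of the higher and 5 of the lower were predicted genes or pseudogenes, which left 9 and 10 genes to name. All 19 had an adjusted p of 1 (limma), so they are given as values, not as changes.

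Among the higher genes, Polr2l, a small subunit shared by RNA polymerases I, II and III, had the smallest p. It was at 1.5, 2.15, 2.44 and 2.39 in Het and 3.70, 3.95, 2.93 and 3.65 in Homo libraries. The lowest Homo library, Homo 3, was still above the highest Het library, and the difference was 1.44 ± 0.28 SE. Tank, an adaptor of TRAF signaling toward NF-κB and interferon genes, had the tightest groups of the 9: Het libraries were at 3.75, 3.77, 3.69 and 3.77 and Homo libraries at 4.30, 4.32, 4.35 and 4.37. The gap between the groups was wider than the range within either, and the difference was 0.59 ± 0.14 SE. Colgalt2, a collagen galactosyltransferase, was at 2.54, 1.6, 1.13 and 1.15 in Het and 3.79, 3.55, 3.90 and 2.64 in Homo libraries. Het 1 and Homo 4 nearly met, and the difference was 1.86 ± 0.46 SE.

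C1rb, a homolog of the complement protease C1r, differed by 1.61 ± 0.38 SE, with Het libraries between 0.74 and 1.92 and Homo libraries between 2.20 and 3.70. Igha, the constant region of immunoglobulin A heavy chain, ran from 2.06 to 2.41 in Het and from 2.89 to 4.17 in Homo libraries (difference 1.29 ± 0.32 SE). Ppp4r4, a regulatory subunit of protein phosphatase 4, differed by 0.49 ± 0.12 SE, and Rundc3b, a RUN domain protein, by 1.18 ± 0.30 SE. Those 4 genes were separated, though their Homo libraries varied among themselves. Tnfrsf26, a TNF receptor family member, and Adam33, a metalloprotease-disintegrin, lay near the floor, and Adam33 was listed at 0 in all 4 Het libraries against 0.71 to 1.44 in Homo. Exons of Tnfrsf26 overlap those of a predicted gene.

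Among the lower genes, Nhs, a gene of lens and craniofacial development on the X chromosome, had the smallest p and was at 2.42, 1.43, 1.64 and 1.15 in Het and 0.01, 0, 0 and 0.49 in Homo libraries. It was thus at or near the floor in Homo, and the difference was -1.53 ± 0.31 SE. G0s2, an inhibitor of the triglyceride lipase Pnpla2, was at 4.51, 4.47, 4.42 and 4.17 in Het and 3.47, 3.14, 3.87 and 3.58 in Homo libraries. All Homo libraries were below 4, and the difference was -0.88 ± 0.19 SE, with a 95% interval of -1.30 to -0.46.

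Acot1, a cytosolic acyl-CoA thioesterase, was at 6.84, 6.42, 6.47 and 6.24 in Het and 5.73, 5.80, 5.60 and 6.22 in Homo libraries. Homo 4 lay only 0.02 below Het 4, and the difference was -0.66 ± 0.17 SE. Cpt1a, the carnitine palmitoyltransferase that controls entry of fatty acids into mitochondria, was at 8.42, 8.32, 8.21 and 8.16 in Het and 7.87, 7.73, 7.68 and 7.95 in Homo libraries. The groups lay close but apart, and the difference was -0.47 ± 0.13 SE. Mettl7a1, a methyltransferase-like protein of lipid droplets, differed by -0.99 ± 0.27 SE, with Homo libraries between 3.92 and 4.33 and Het libraries between 4.91 and 5.24. Thnsl2, a threonine synthase-like enzyme, differed by -0.76 ± 0.20 SE and Shcbp1l, a gene known from testis, by -0.87 ± 0.24 SE near the floor. Atp8a2, a phospholipid flippase (-0.53 ± 0.13 SE), Asap2, an Arf GTPase-activating protein (-0.68 ± 0.18 SE), and Man2c1, a cytosolic mannosidase (-0.43 ± 0.11 SE), share exon sequence with other annotated genes. The labels do not say whether counting used strand, so reads of those 3 genes and of their neighbors may not have been told apart.

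**Figure D3:**
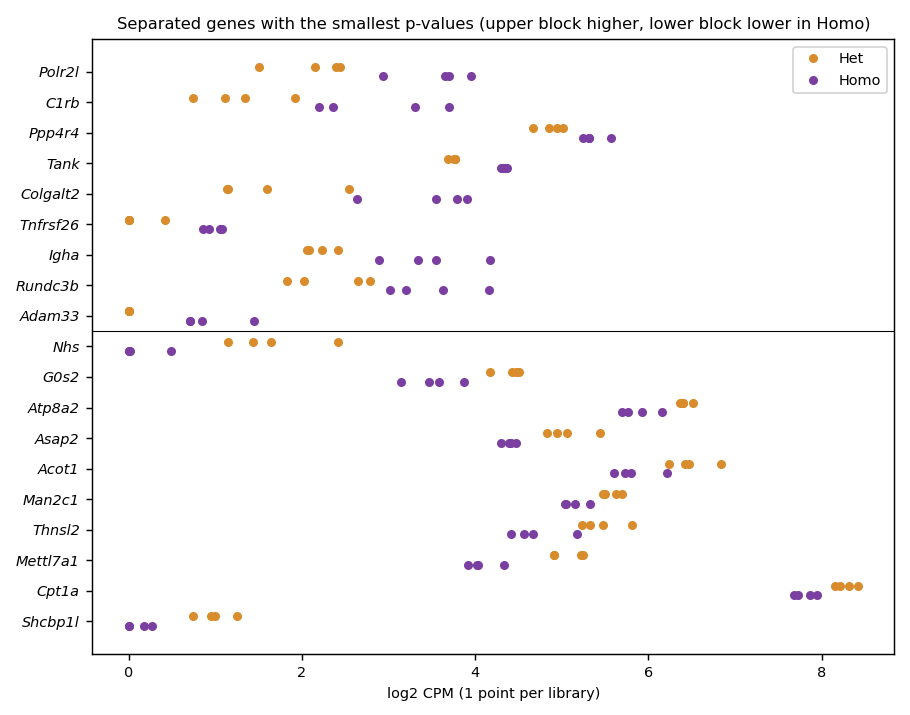
Level (x axis, log2 CPM) of the 19 named separated genes in the 4 Het and the 4 Homo libraries, 1 point per library. The upper 9 genes are higher and the lower 10 are lower in Homo. Tank has the tightest groups and Acot1 the closest approach, with Homo 4 at 6.22 and Het 4 at 6.24.

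The gene lists are described by counts and medians, beside 41.1% of all genes higher and 58.1% lower, 3.86% at an unadjusted p under 0.05 and 2.67% separated. No member of any of the 43 lists passed the test. The list whose median lay farthest below 0 was that of fatty acid oxidation and PPAR targets, genes that carry fatty acids into mitochondria and peroxisomes, break them down and make ketone bodies, many under the nuclear receptor Ppara. Of 27 measured members 24 were lower in Homo, 1 was higher and the other two were listed at 0 in all 8 libraries (Cyp4a10 and Cyp4a14). The median difference was -0.42, against -0.04 over all genes. The mean level over the list was 6.11, 5.94, 5.76 and 5.05 in Het and 5.51, 5.18, 5.09 and 5.54 in Homo libraries. Het 4 was thus the lowest of all 8, so the groups overlapped, and the WT libraries were at 5.30, 5.78, 5.48 and 5.03.

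Within that list, 4 members had an unadjusted p under 0.05, all lower in Homo, where 2.53% of all genes were lower at that p: Acot1, Cpt1a, Acadl and Angptl4. Acadl, the long-chain acyl-CoA dehydrogenase, was at 6.85, 6.61, 6.56 and 6.31 in Het and 6.07, 6.10, 5.75 and 6.46 in Homo libraries (difference -0.49 ± 0.16 SE). Homo 4 fell inside the Het range. Angptl4, a secreted inhibitor of lipoprotein lipase, was at 7.06, 6.78, 6.78 and 5.96 in Het and 6.50, 5.90, 5.74 and 5.97 in Homo libraries (difference -0.62 ± 0.24 SE). Here Het 4 fell inside the Homo range. The next genes were named for their roles after their values were seen. Ehhadh, the bifunctional enzyme of peroxisomal oxidation, differed by -0.90 ± 0.52 SE and Ppara itself by -0.40 ± 0.31 SE. Only Fabp1, the liver fatty acid binding protein, was higher, by 0.14 ± 0.37 SE. Under every alternative processing 21 to 25 of the members were lower, and the median ran from -0.58 to -0.31.

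Ppara binds direct repeats of a hexamer next to genes of this kind, and promoter sequence is shown for 2 of the members with such letters: Fabp1, which holds the direct repeat, and Cpt1a, which holds a half-site and was separated. The list was picked for this after its values were seen. The 250 bases before the RefSeq start (GRCm38.p6) were found for 19 of the 27 members. The direct repeat (AGGNCA, any base, AGGNCA) was searched first, on both strands, and was in 1 of the 19 (Fabp1), against 36 of 10473 genes of the table (0.344%). The half-site AGGTCA, which also matches inside some direct repeats, was searched after that result was known. It was in 6 of the 19 (31.6%: Acadm, Acadvl, Cd36, Cpt1a, Fabp1 and Plin2), against 1437 of 10473 (13.7%). The windows of Acot1 and Acadl, both lower at an unadjusted p under 0.05, held neither pattern. Fabp1 was the only member higher in Homo. The sequences of Cpt1a and Fabp1 are printed 5′ to 3′ on the strand of the gene, with the matches in capitals, here read from the opposite strand. A match is a description of letters in this window and says nothing of binding.
Cpt1a (chr19:3323051-3323300, plus strand): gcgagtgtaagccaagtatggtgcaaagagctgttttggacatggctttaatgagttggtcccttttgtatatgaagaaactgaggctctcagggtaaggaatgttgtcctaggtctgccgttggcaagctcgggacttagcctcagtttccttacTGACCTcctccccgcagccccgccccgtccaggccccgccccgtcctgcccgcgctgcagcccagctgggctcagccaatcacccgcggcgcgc
Fabp1 (chr6:71199629-71199878, plus strand): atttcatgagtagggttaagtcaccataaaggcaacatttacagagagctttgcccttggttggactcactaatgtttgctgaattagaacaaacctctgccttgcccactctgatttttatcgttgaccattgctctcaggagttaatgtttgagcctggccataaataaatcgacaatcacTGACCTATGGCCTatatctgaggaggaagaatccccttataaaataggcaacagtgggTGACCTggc

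Acute phase and inflammation genes, mostly secreted by hepatocytes, were higher in Homo in 25 of 29 members, with a median of 0.39. The 2 members with an unadjusted p under 0.05 were Apcs, serum amyloid P (2.93, 2.81, 3.13 and 2.88 in Het against 3.68, 2.99, 4.09 and 4.06 in Homo), and Hamp, the iron hormone hepcidin. Homo 2 fell inside the Het range for Apcs. Hamp was at 2.98, 2.77, 0.20 and 1.35 in Het and 2.79, 4.37, 3.58 and 2.24 in Homo libraries, with Homo 1 and Homo 4 inside the Het range. The mean level over the list was 3.61, 3.97, 3.19 and 3.34 in Het and 3.78, 4.04, 4.48 and 3.56 in Homo libraries. Homo 1 and Homo 4 were inside the Het range there too. Apcs differed by 0.77 ± 0.27 SE and Hamp by 1.42 ± 0.66 SE. Stat3, the transcription factor of the interleukin 6 response, differed by 0.35 ± 0.18 SE. The list median was 0.21 without Het 4 and 0.10 without Homo 3 and Het 4.

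In the interferon list 27 of 30 genes had higher means in Homo, with a median of 0.18, and none had an unadjusted p under 0.05. Igtp differed by 0.69 ± 0.37 SE, Usp18 by 0.73 ± 0.41 SE, Oas3 by 0.98 ± 0.58 SE and Bst2 by 0.20 ± 0.13 SE. The mean level over the list was 3.38, 3.35, 2.36 and 2.96 in Homo and 3.0, 2.64, 2.62 and 2.68 in Het libraries. Homo 3 was thus below every Het library, and without it the median was 0.39. The median was 0.0921 without Homo 1 and 0.12 without Homo 2. Antigen presentation genes were balanced, with 9 higher and 10 lower and a median of -0.01. The smallest p-values there belonged to the class I genes H2-Q6 (0.36 ± 0.34 SE), H2-Q7 (0.43 ± 0.48 SE), H2-T23 (-0.21 ± 0.25 SE) and B2m (0.19 ± 0.24 SE).

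**Figure D4:**
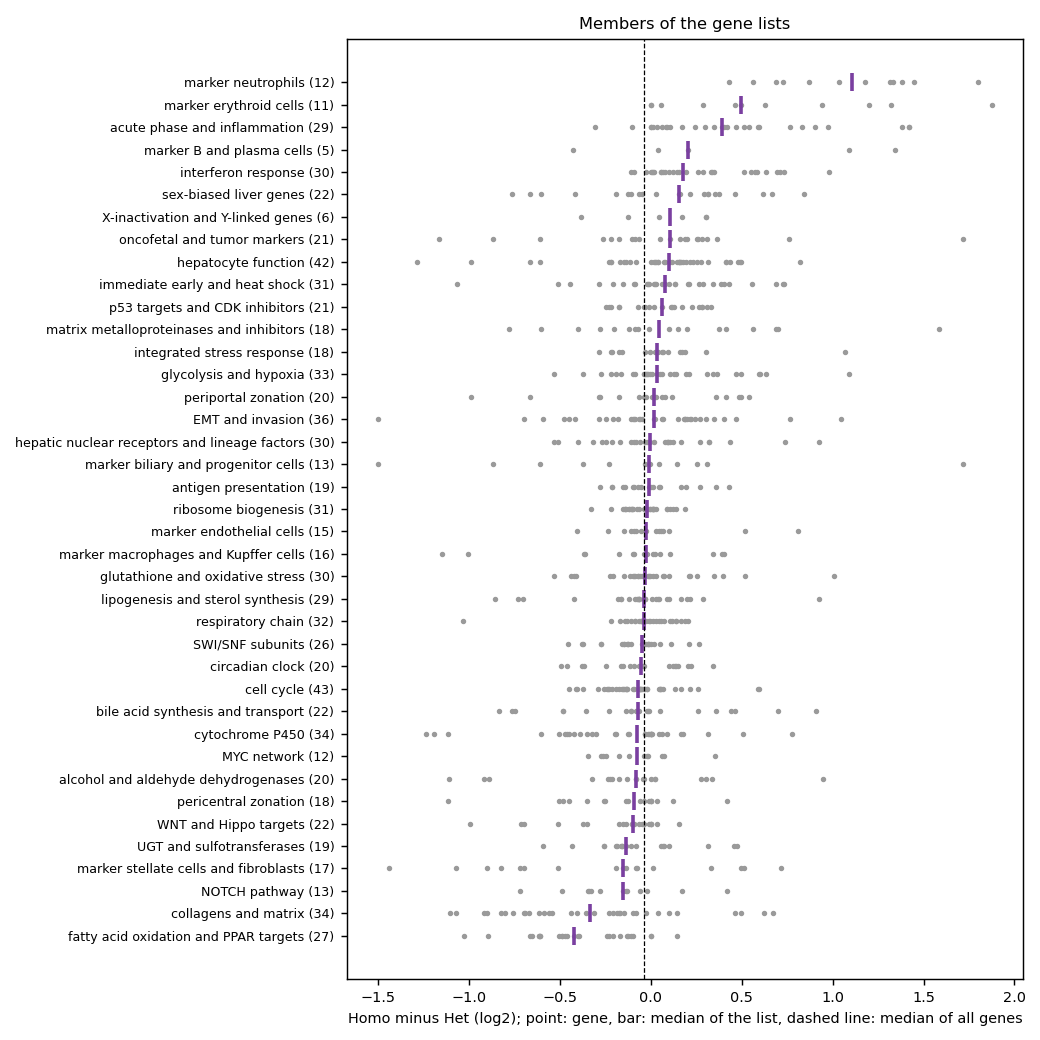
Homo minus Het difference (x axis, log2) of the measured members of each list with at least 5 of them (number in brackets). Points are genes, colored bars list medians and the dashed line the median of all genes (-0.04). Fatty acid oxidation has the lowest median (-0.42) and neutrophil markers the highest (1.11), and members of most lists lie on both sides of 0.

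Of 34 collagen and matrix genes 27 were lower in Homo and 7 higher, with a median of -0.33 that became -0.07 without Homo 3 and -0.52 without Homo 4. Col1a1, the main fibrillar collagen, was at 8.05, 7.80, 7.49 and 7.62 in Het and 6.97, 6.43, 5.38 and 7.89 in Homo libraries. Homo 4 was inside the Het range and Homo 3 the lowest of all, and the difference was -1.07 ± 0.38 SE. Col8a1 (-1.10 ± 0.42 SE) and Col1a2 (-0.90 ± 0.38 SE) had the same order of Homo libraries. Loxl4, a collagen crosslinking enzyme, was higher and separated but near the floor (0.67 ± 0.24 SE).

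Stellate cell and fibroblast markers summed to 623 to 852 CPM in Het and to 509, 480, 182 and 939 CPM in Homo libraries 1 to 4. Col1a1 and Col1a2 are on this list too, so the sum in part repeats the collagen values above. In bulk tissue, fewer cells of a type and less RNA per cell cannot be told apart. Acta2, smooth muscle actin of activated stellate cells, was separated, at 3.94, 3.52, 3.49 and 4.04 in Het and 2.84, 1.05, 2.24 and 3.11 in Homo libraries (difference -1.44 ± 0.42 SE). The 3 leading markers Lrat, Reln and Des differed by 0.72 ± 0.31, -0.08 ± 0.42 and 0.01 ± 0.37 SE. Of the 17 markers 12 were lower, and the list median of -0.15 was not stable: it became 0.10 without Homo 3, -0.44 without Homo 4, -0.28 without Het 3, -0.25 without Homo 2, -0.0942 without Het 1 and 0.0119 with array weights. The part of stromal content in the collagen values was not tested.

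Neutrophil markers had the highest list median, 1.11, with all 12 measured members above 0 in difference. Their summed level was 1.15 to 5.51 CPM in Het, 4.32 to 12.8 CPM in Homo 1, 2 and 4, and 228 CPM in Homo 3. Lcn2, described above, is on this list. Outside Homo 3 the sum came from Lcn2, Csf3r and Ltf alone. Ltf, lactoferrin, differed by 1.45 ± 0.94 SE. S100a8, at 4.72, and S100a9, at 5.32, were above the floor in Homo 3 alone, and without that library the list median was 0. Csf3r, the receptor for granulocyte colony-stimulating factor, was the only separated member, at 0.25, 0, 0 and 0 in Het and 2.37, 1.76, 2.47 and 0.85 in Homo libraries. All 4 Homo libraries were above the highest Het library, and the difference was 1.80 ± 0.49 SE. Erythroid markers had 9 of 11 members higher and none lower, with a median of 0.50. That median was 0.21 without Homo 3 and 1.20 once members whose mean log2 CPM was under 2 were dropped. They summed to 27.1 to 30.9 CPM in Het and to 36.1, 65.1, 121 and 30.8 CPM in Homo libraries. Hbb-bs, adult beta globin, differed by 1.20 ± 0.77 SE, and Slc4a1, the band 3 anion exchanger, was separated (1.88 ± 1.37 SE), led by Homo 3 at 4.72. Hbb-bt differed by 0.94 ± 0.80 SE and Hba-a1 by 0.50 ± 0.49 SE. The parts that blood and neutrophil content have in the Lcn2 and acute phase values were not tested. Lcn2 itself counts toward the neutrophil sum.

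For B and plasma cells 5 of 14 markers were listed. Only genes that reach a log2 value of 1 in some library were deposited, so an unlisted marker may have been low throughout. Igkc, the kappa light chain, was separated, at 1.95, 2.18, 2.10 and 1.15 in Het and 3.49, 3.01, 2.39 and 3.87 in Homo libraries (difference 1.34 ± 0.36 SE). Jchain, which joins secreted IgA and IgM, differed by 1.09 ± 0.41 SE, and Homo 3 was at 0. Ighm differed by -0.43 ± 0.39 SE and Mzb1 by 0.20 ± 0.38 SE. Of the 5, 4 were higher and 1 lower, with a median of 0.20. Igkc and Jchain are products of plasma cells, but Mzb1 was high in Homo 1 alone (2.30) and Ighm had a lower mean. Igha, named above for its small p, is not on this list. The B cell markers Cd79a and Ms4a1 were not among the genes listed.

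Macrophage and Kupffer cell markers had 7 of 16 members higher and 9 lower, with a median of -0.03. Cd163, a scavenger receptor of resident macrophages, was lower at an unadjusted p under 0.05 (-1.01 ± 0.35 SE), at 3.09, 2.62, 3.13 and 2.0 in Het and 1.65, 1.05, 2.47 and 1.64 in Homo libraries. Only Homo 3 overlapped the Het range. Timd4, a marker of resident Kupffer cells, was at 3.82 to 3.97 in Het and 3.18, 3.43, 0 and 4.35 in Homo libraries (difference -1.15 ± 0.68 SE). Adgre1, the macrophage marker F4/80, differed by -0.04 ± 0.28 SE, Clec4f, a Kupffer cell lectin, by 0.03 ± 0.69 SE, Vsig4 by 0.34 ± 0.51 SE, Lyz2 by -0.37 ± 0.24 SE and Msr1 by 0.39 ± 0.33 SE.

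Endothelial markers had 7 of 15 members higher, with a median of -0.03. Pecam1 differed by 0.05 ± 0.25 SE, Cdh5 by 0.03 ± 0.33 SE, Kdr by 0.10 ± 0.29 SE, Lyve1 by 0.81 ± 0.53 SE, Fcgr2b by 0.52 ± 0.40 SE, Oit3 by -0.41 ± 0.48 SE and Stab1 by -0.15 ± 0.22 SE. Biliary and progenitor markers had 5 of 13 higher, with a median of -0.01. Spp1, the osteopontin gene, was at 2.68, 3.35, 2.10 and 4.37 in Het and 1.40, 1.51, 0.49 and 3.09 in Homo libraries (difference -1.5 ± 0.58 SE). Cd24a, the only separated member of this list, was higher in Homo by 1.72 ± 1.13 SE. Prom1 differed by 0.25 ± 0.27 SE and Epcam by -0.87 ± 0.95 SE. Krt7, Krt8 and Krt18 differed by -0.37 ± 0.76, -0.03 ± 0.17 and -0.01 ± 0.20 SE. For T and NK cells 3 of 18 markers were listed. Cd4 differed by -0.66 ± 0.54 SE, Lck by 0.10 ± 0.31 SE, and Gzma was at 0 in all 8 libraries. A single pancreatic acinar marker, Cela1, was listed (0.31 ± 0.44 SE), and 4 of 11 adipocyte and muscle markers. Of these, Car3 differed by -1.40 ± 1.11 SE, Ckm by -0.53 ± 0.73 SE, Mylpf by -0.06 ± 0.31 SE and Cidec by -0.01 ± 0.35 SE.

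**Figure D5:**
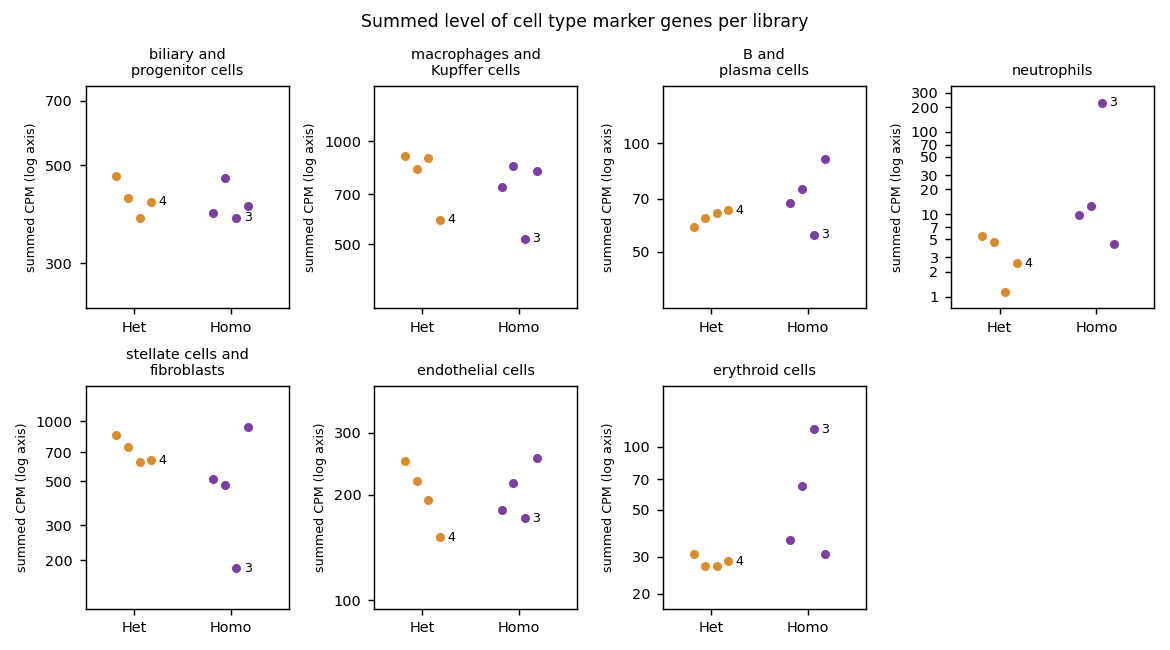
Summed CPM (y axis, log scale) of the marker genes of 7 cell types in each Het and Homo library, 1 point per library, with Homo 3 and Het 4 numbered. Homo 3 is far above the others for neutrophil markers (228 CPM) and the highest for erythroid markers (121 CPM), and the lowest for stellate and fibroblast markers (182 CPM). The neutrophil list includes Lcn2, and the stellate and fibroblast list includes Col1a1 and Col1a2.

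Lists close to Arid1a and MYC held small differences. Of 26 other SWI/SNF subunits 20 were lower in Homo and 6 higher, but the median was -0.05, near that of all genes. Arid1b, the paralog, was at 6.87, 6.83, 6.78 and 6.68 in Het and 6.52, 6.63, 6.57 and 6.84 in Homo libraries (difference -0.15 ± 0.11 SE). Homo 4 overlapped the Het range. Smarcd1 differed by -0.38 ± 0.18 SE, Smarcd2 by 0.21 ± 0.14 SE and Bcl7a by -0.27 ± 0.19 SE. The MYC network, the partners and antagonists that share its E-box sites, had 9 of 12 members lower with a median of -0.08, and Mlxip differed by -0.25 ± 0.12 SE, Mxd4 by -0.27 ± 0.17 SE, Mxd1 by 0.35 ± 0.22 SE and Mxi1 by -0.18 ± 0.11 SE.

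Among 31 ribosome biogenesis genes 12 were higher, the median was -0.02, and the whole list lay within -0.33 (Gar1) and 0.19 (Nop58). Fbl differed by -0.22 ± 0.15 SE and Pes1 by -0.14 ± 0.11 SE. Cell cycle genes had 32 of 43 lower with a median of -0.07. The 2 with an unadjusted p under 0.05 were Ccnd2, cyclin D2 (0.59 ± 0.25 SE), and Kif23, a kinesin of cytokinesis (-0.41 ± 0.18 SE). Birc5 differed by -0.26 ± 0.12 SE and Ccne1 by 0.59 ± 0.29 SE. For p53 targets 12 of 21 were higher, with a median of 0.06, and Mdm2, the feedback ligase of p53, differed by 0.33 ± 0.23 SE, Fas by 0.28 ± 0.24 SE, Bbc3 by -0.22 ± 0.20 SE and Perp by 0.12 ± 0.13 SE.

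Hepatocyte function genes had 30 of 42 members higher, with a median of 0.10. Tdo2, a tryptophan-degrading enzyme, differed by -1.29 ± 0.64 SE, Serpina1a by 0.41 ± 0.21 SE, Ahsg by 0.82 ± 0.50 SE and Arg1 by 0.41 ± 0.27 SE. Of 34 cytochrome P450 genes 9 were higher and 21 lower, with a median of -0.08. Cyp3a13 was separated and higher, at 3.94, 4.09, 3.64 and 3.89 in Het and 4.63, 4.30, 4.48 and 4.18 in Homo libraries (difference 0.51 ± 0.16 SE). Cyp2j5 was separated and lower near the floor (-1.24 ± 0.45 SE), Cyp2c40 differed by -1.19 ± 0.49 SE and Cyp2c70 by 0.78 ± 0.41 SE. Members of the P450 subfamilies are close copies, and the labels do not say how reads shared between them were counted.

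Glul, the glutamine synthetase of pericentral hepatocytes and a target of WNT signaling, was separated and lower, at 7.75, 7.44, 7.47 and 7.42 in Het and 7.13, 7.14, 7.02 and 6.99 in Homo libraries. The groups were tight and 0.28 apart at their nearest libraries, and the difference was -0.45 ± 0.13 SE, though exons of 2 other annotated genes overlap it. Of 18 pericentral genes 12 were lower and 3 higher, with a median of -0.09, and Cyp2e1 differed by -1.12 ± 1.06 SE, Prodh by -0.26 ± 0.26 SE and Oat by -0.14 ± 0.17 SE. Periportal genes had 12 of 20 higher and a median of 0.02, and Ctsc differed by 0.48 ± 0.24 SE, Sdsl by -0.28 ± 0.19 SE and Pck1 by -0.99 ± 0.70 SE. Of 22 bile acid genes 15 were lower (median -0.07), and Abcc3 differed by -0.35 ± 0.18 SE, Slco1b2 by -0.83 ± 0.57 SE, Akr1d1 by 0.70 ± 0.53 SE and Abcc2 by 0.26 ± 0.21 SE.

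Lipogenesis and sterol genes were 11 higher and 18 lower of 29 (median -0.04). Pnpla3, a lipid droplet protein, differed by 0.93 ± 0.38 SE and Acacb, the acetyl-CoA carboxylase whose product inhibits Cpt1a, by -0.70 ± 0.30 SE, while Me1 differed by -0.85 ± 0.44 SE and Acaca by 0.28 ± 0.15 SE. Glutathione and oxidative stress genes were 12 higher and 18 lower of 30 (median -0.03), and Mgst3 differed by -0.42 ± 0.19 SE, Gpx4 by -0.41 ± 0.19 SE, Gclm by -0.23 ± 0.15 SE and Sod3 by 0.35 ± 0.23 SE. Respiratory chain genes were 12 higher and 20 lower of 32 (median -0.04), and Cox6c differed by 0.20 ± 0.12 SE, Atp5j by 0.17 ± 0.11 SE, Uqcrc2 by -0.22 ± 0.17 SE and Uqcrb by 0.19 ± 0.16 SE. Alcohol and aldehyde dehydrogenases were 7 higher and 13 lower of 20 (median -0.08), with Adh4 separated near the floor (-0.92 ± 0.40 SE), Aldh1a1 at -0.89 ± 0.43 SE, Aldh9a1 at -0.23 ± 0.13 SE and Adh1 at 0.95 ± 0.54 SE. Conjugating enzymes of the UGT and sulfotransferase families were 7 higher and 12 lower of 19 (median -0.14), with Ugt1a6a at 0.46 ± 0.33 SE, Ugt2b1 at -0.59 ± 0.58 SE, Sult5a1 at 0.47 ± 0.48 SE and Ugt3a2 at -0.43 ± 0.64 SE.

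Among transcription factors of the liver lineage, 14 of 30 were higher and the median was -0.01. Gata4, a factor of early liver development, had the smallest p of that list and was at 3.98, 3.33, 3.35 and 4.0 in Het and 3.88, 5.25, 4.75 and 4.47 in Homo libraries (difference 0.92 ± 0.26 SE). Homo 1 fell inside the Het range. Ahr differed by -0.32 ± 0.17 SE, Rxra by -0.25 ± 0.17 SE and Nr1i3 by 0.74 ± 0.55 SE. Clock genes were 8 higher and 12 lower of 20 (median -0.05), and Per3 (-0.49 ± 0.20 SE), Tef (-0.37 ± 0.16 SE) and Dbp (-0.46 ± 0.23 SE), which cycle over the day, had lower means in Homo. The hour of collection is not given in the labels.

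WNT and Hippo targets were 2 higher and 17 lower of 22 (median -0.10), and Fzd8 (-0.99 ± 0.39 SE) was separated near the floor, while Ctgf, a Hippo target, differed by -0.70 ± 0.29 SE, Wnt5a by -0.71 ± 0.48 SE and Tcf7 by -0.51 ± 0.39 SE. NOTCH genes were 2 higher and 11 lower of 13 (median -0.15), and Notch4 differed by -0.49 ± 0.33 SE, Notch2 by -0.14 ± 0.11 SE, Jag2 by -0.72 ± 0.59 SE and Lfng by -0.34 ± 0.30 SE. Epithelial-mesenchymal and invasion genes were 19 higher and 17 lower of 36 (median 0.02). At an unadjusted p under 0.05, 1 of them was higher and 2 were lower, and 1 was separated in each direction. Plaur, the urokinase receptor, differed by 1.05 ± 0.37 SE, Spp1 by -1.50 ± 0.58 SE and Ctgf by -0.70 ± 0.29 SE. Zeb1, a repressor of epithelial genes, was separated and higher. It was at 5.39, 5.48, 5.19 and 5.34 in Het and 5.78, 5.61, 5.92 and 5.97 in Homo libraries (difference 0.47 ± 0.24 SE). Matrix metalloproteinase genes were 9 higher and 9 lower of 18 (median 0.04), and Adamts4, whose exons overlap another annotation, differed by 1.58 ± 0.49 SE, Mmp23 by -0.78 ± 0.32 SE, Adamts2 by -0.60 ± 0.31 SE and Mmp8 by 0.69 ± 0.50 SE.

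Oncofetal genes were 12 higher and 9 lower of 21 (median 0.11). Cd24a, a surface glycoprotein of progenitor and tumor cells, was separated, at 0.95, 0, 0.44 and 0 in Het and 1.26, 1.89, 3.72 and 1.38 in Homo libraries, but the difference of 1.72 ± 1.13 SE had a wide error. H19, an imprinted fetal RNA, was at 12.98 or more in every library (difference 0.31 ± 0.26 SE), Akr1c18 differed by -1.17 ± 0.79 SE and Prom1 by 0.25 ± 0.27 SE. Hypoxia and glycolysis genes were 18 higher and 15 lower of 33 (median 0.03), with Epas1 at -0.53 ± 0.24 SE, Eno2 at 1.09 ± 0.59 SE, Vegfa at 0.34 ± 0.19 SE and Adm at 0.47 ± 0.33 SE. Immediate early and heat shock genes were 20 higher and 11 lower of 31 (median 0.08), with Egr2 separated near the floor (0.69 ± 0.22 SE), Klf2 at -0.51 ± 0.25 SE, Hsp90aa1 at -0.45 ± 0.24 SE and Fos at 0.72 ± 0.47 SE. Genes of the integrated stress response were 11 higher and 7 lower of 18 (median 0.04), with Chac1 at 1.07 ± 0.42 SE, Phgdh at -0.21 ± 0.10 SE, Slc3a2 at -0.22 ± 0.12 SE and Slc7a5 at -0.28 ± 0.17 SE.

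Of 272 genes that start within 10 Mb of the Arid1a start, 93 were higher and 177 lower (65.1% lower against 58.1% of all genes), with a median of -0.07. Of these, 3 were separated, all higher in Homo, and 10 had an unadjusted p under 0.05, 4 higher and 6 lower. Neither share was above that of all genes (2.67% and 3.86%). Sex-biased liver genes were 13 higher and 9 lower of 22 (median 0.16), with Socs2 at 0.67 ± 0.40 SE, C8b at 0.62 ± 0.42 SE and Cyp17a1 at 0.84 ± 0.61 SE.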

How the data were processed

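RNA of frozen liver tumors was extracted with Trizol and a miRNeasy kit and sequenced from Nugen libraries, per the labels' protocols. Tools named in the submitters' processing notes, without versions, are featureCounts, SAMtools, HISAT2 and Trim Galore, with the build GRCm38 (mm10). The authors deposited normalized log2 CPM, with genes at or below 1 CPM listed at 0 and only genes that reach a log2 value of 1 in some library. The floor understates differences of low genes and narrows their spread. Low values were whole reads within 0.1 reads for all low values of the 8 libraries, which gave the depths, but higher values are too coarsely rounded for a count test. Depth in WT was 6.63 to 12.0 M reads. Within Het and within Homo, no library was a copy of another, and other pairs were not compared.

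The 12 FVB libraries were fitted together with limma 3.58.1 in R 4.3.3 (lmFit, eBayes with a trend), and p-values are two-sided and Benjamini-Hochberg adjusted over 16140 genes, threshold 0.05. Positions are from GENCODE, matched for 16086 genes, and promoters from RefSeq. Het and Homo were told apart by the genotype field, since the treatment text does not distinguish them. The test was checked on simulated data.

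The comparison and the 43 gene lists were chosen with earlier results of these data known. Named genes are the 15 separated genes with the smallest p-values in each direction, Arid1a, Myc, the study's 4 genes, up to 4 members of each list with the smallest p-values, the first 3 markers of marker lists, Xist and the Y-linked genes. Predicted genes and pseudogenes are named only by group, and a few genes the rule would name are not reported here. Alternatives were other samples in the fit, a replicate block, a filter, the floor, 3 scalings, variance models, array weights, an Xist covariate and leaving out libraries. Leaving out Homo 3 with Het 4 was chosen after seeing the principal components.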

Additional observations from a re-analysis of the deposited data

Results flagged for a closer look

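A library far from the other 3 of its group was found for 36 of 486 values examined, where chance flags about 1 in 20. Of these, 9 were in Homo 3, 8 in Het 4, 6 in Het 1, 5 in Homo 4, 3 in Homo 1, 2 each in Het 2 and Homo 2, and 1 in Het 3.

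Homo 3 was high for Il1r1 (4.59), Arg1 (7.66), Cyp2c40 (1.81), Prom1 (1.01), Mmp8 (2.75), S100a8 (4.72), S100a9 (5.32) and Slc4a1 (4.72), and its mean over the neutrophil markers was 3.75, against 0.18 to 0.47 in the other Homo libraries. Het 4 was low for Akr1d1 (4.63), Stat3 (6.25), Gclm (7.74), Tef (6.43) and Lyz2 (7.28) and high for Lrat (0.29), for the mean over SWI/SNF subunits (5.76) and for the mean over Xist and Y-linked genes (5.47).

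Het 1 was high for Tnfrsf26 (0.42), Glul (7.75), Csf3r (0.25) and the mean of the interferon list (3.0), and low for Uqcrb (4.65) and a pseudogene (4.95). Het 2 was low for Myc (3.62) and high for Cidec (1.18), and Het 3 was high for Hba-a1 (0.55). Homo 4 was high for Nhs (0.49), Sod3 (3.67), Adamts2 (3.86), Ugt2b1 (0.38) and a pseudogene (1.77). Homo 1 was high for Mzb1 (2.30), low for Uqcrc2 (6.84) and at 0.01 for a pseudogene listed at 0 in the other 3. Homo 2 was high for Adm (1.61) and Krt7 (1.20).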

How the results depend on the processing

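No gene passed under any alternative except without Het 1, where 3 did, all pseudogenes lower in Homo (0 to 3 over the single left-out libraries). Counts at an unadjusted p under 0.05 ran from 416 (mean log2 CPM of at least 2) to 1234 (array weights). Separated genes numbered 651 to 1174 with 1 library left out and 1885 without Homo 3 and Het 4, since fewer libraries separate more easily by construction. Same-numbered Het and Homo libraries did not deviate together (r from -0.20 to 0.087, 0 of 4 pairs over 0.1). Whether they shared a preparation or sequencing run was not tested. The fit with the replicate block called 0 genes, with 788 at an unadjusted p under 0.05. No list had a passing member under any alternative. List medians also turned on single libraries. Without Homo 3, that of neutrophil markers went from 1.11 to 0 and that of collagens and matrix from -0.335 to -0.07. That of stellate cell and fibroblast markers went from -0.15 to 0.095, while that of fatty acid oxidation went from -0.42 to -0.31. The median of erythroid markers moved from 0.50 to 1.20 with the filter at a mean log2 CPM of 2.

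The sign of some named genes turned, in each case near 0 or with a wide error, and the cause was not tested. With array weights the differences were Arid1a 0.14, Xist 0.67, Krt8 0.0226, Krt18 0.028, Adgre1 0.10, Reln 0.37 and Uty -0.014. With an Xist covariate they were Arid1a 0.00215 and Reln 0.00906. With median centring they were Arid1a 0.0075, Krt8 0.0025, Krt18 0.0275 and Cidec 0.03, with quantile normalization Myc 0.0149, H19 -0.18, Krt18 0.0216 and Adgre1 0.0312, without Gm26917 Cidec 0.0328, and on log2(CPM + 1) Mylpf 0.20 and Cidec 0.24. Without Homo 3 and Het 4 they were Arid1a 0.11, H2-Q6 -0.10, C8b -0.02, Cyp17a1 -0.11, Xist 1.33, Ugt3a2 0.09, Krt8 0.00667, Adgre1 0.16, Clec4f -0.0467, Reln 0.35, Pecam1 -0.0333 and Cela1 -0.0133.

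With single libraries left out the ranges that crossed 0 were: Arid1a -0.12 to 0.11, Myc -0.11 to 0.0608, Emilin1 -0.24 to 0.0867, Mat1a -0.27 to 0.0825, Adgre1 -0.22 to 0.15, Cdh5 -0.13 to 0.30, Cela1 -0.0192 to 0.64, Cidec -0.18 to 0.28, Clec4f -0.42 to 0.48, Des -0.25 to 0.28, Kdr -0.15 to 0.30, Krt18 -0.0917 to 0.11, Lck -0.0717 to 0.29, Mylpf -0.24 to 0.18, Mzb1 -0.19 to 0.38, Pecam1 -0.16 to 0.17, Reln -0.51 to 0.18, Sult5a1 -0.0342 to 0.81, Uty -0.0875 to 0.13 and Xist -1.03 to 0.70. Intervals were wider in low genes (0.735 log2 units to each side in the median gene with a mean log2 CPM under 2, against 0.302 at 5 or more), and the part of depth in this was not tested. Between replicates the variance was 3.40 to 24.0 times the sampling variance in the median gene.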

Other observations

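Several of the genes farthest above the other libraries in Homo 3 are known from neutrophils and their precursors. Those listed at 0 in the other 7 libraries included S100a9 at 5.32, Ngp at 5.26, Chil3 at 5.22, S100a8 at 4.72, Mpo at 4.14 and Camp at 3.48 in Homo 3. Not every such gene had this pattern: Ltf, at 4.55 in Homo 3, was also above the floor in Homo 1 (0.18) and Homo 2 (1.05), and Lcn2 was above the floor in all 8 libraries. Among the 31 genes that lay far below the other libraries in Homo 3, Dsp, desmoplakin, was at 3.47 against 6.74 to 7.83 in the others, Lad1, ladinin, at 0 against 4.31 to 5.67, and Pls1, an actin-bundling plastin, at 2.27 against 5.58 to 6.76. These genes were named after their values were seen.

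Xist was at 1.5, 0.49, 2.06 and 5.67 in Het and 1.10, 3.55, 0.14 and 3.40 in Homo libraries. Ddx3y, Kdm5d, Eif2s3y and Uty, all Y-linked, were between 5.27 and 6.89 in every one of these 8 libraries, and Ddx3y had the smallest p of them (0.30 ± 0.12 SE).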
